A study of Mus musculus with 4 samples.

Results

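The 36 genes described here encode extracellular and lysosomal proteases and the inhibitors that act on them. They were chosen by name from the gene table of the series, which lists 27998 genes, and all 36 were found. They comprise 13 matrix metalloproteinases (MMPs), 4 inhibitors (Timp1, Timp2, Timp3 and Reck), 7 ADAM and 8 ADAMTS proteases, and 4 cysteine cathepsins (Ctsb, Ctsk, Ctsl and Ctss). Expression was measured by 10x Chromium 3' single-cell RNA sequencing in 2 pancreatic tumors of KPC mice on a C57BL/6J background, which carry KrasLSL-G12D/+, Trp53LSL-R172H/+ and Pdx1-Cre. Pdx1-Cre switches both mutant alleles on in the pancreatic epithelial lineage, so stromal and immune cells of these tumors were not the target of recombination. Each tumor was digested with collagenase, liberase and DNase and sorted into an all live fraction (DAPI-negative cells) and a sorted CAF (cancer-associated fibroblast) fraction, gated as negative for DAPI, CD45, CD31 and EpCAM and positive for PDPN. This gave 4 libraries, 1 per tumor and fraction, with no untreated or tumor-free control.

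MMPs are zinc-dependent enzymes that cleave collagens, proteoglycans and other matrix proteins, are made as inactive precursors, and are held in check by the secreted TIMPs and by the membrane-anchored inhibitor Reck. ADAMs are mostly membrane proteases that release growth factors, cytokines and receptors from the cell surface, whereas ADAMTS proteases are secreted and cut proteoglycans and procollagens. Cysteine cathepsins work mainly in lysosomes, and in tumors they are also known from matrix turnover by macrophages and fibroblasts. In pancreatic cancer the dense stroma is a known site of such matrix turnover, and fibroblasts, macrophages and neutrophils are known sources of its enzymes.

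The libraries held 8282 barcodes, of which 7821 were used, with a median of 3287 to 13764 UMIs (unique molecular identifiers, each counting 1 captured transcript) per barcode. Between 4 and 6 barcodes were shared by any pair of libraries. Cells were clustered without the 36 genes and without the related gene lists used below, and clusters were named from marker genes, so a class name such as fibroblast-like does not rest on the levels reported here. Sorted CAF 1 stood apart: 53.8% of its cells were ductal epithelial-like despite the EpCAM-negative gate and 13.1% were fibroblast-like, against 74.1% fibroblast-like in sorted CAF 2. Another 22.4% of sorted CAF 1 cells were unnamed and lay in clusters led by Phgr1 (105 cells) and by Chrna1 and Npy (206 cells). Over all libraries these clusters held the epithelial keratin Krt8 at 4468 and 4063 CPM. Results that use sorted CAF 1 are given with and without it where both values could be had. Different clusters also held most cells of some classes in the 2 tumors. Ductal epithelial-like cells of tumor 1 lay in a cycling cluster (Aurka, Ube2c) and a Ttr-positive cluster, those of tumor 2 in a cluster led by Wfdc18, Agr2 and Epcam. Macrophage or monocyte-like cells of tumor 1 lay mostly in a Chil3-positive cluster, those of tumor 2 in clusters led by Ms4a7 and by Ms4a4c and Ly6c2. Neutrophil-like cells of tumor 1 lay in a cluster led by Camp, Ltf and Ly6g, those of tumor 2 in a cluster led by G0s2, Siglecf and Retnlg. Tests compared sums of UMIs per library and class, so their p-values measure only the spread between 2 tumors.

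The 36 genes took 376827 of 82068735 UMIs in the cells used, or 0.459%. Cathepsins made up 0.228% and inhibitors 0.126% of all UMIs, the 13 MMPs 0.0550%, the ADAMs 0.0304% and the ADAMTS proteases 0.0199%. Levels below are CPM, the UMIs of a gene divided by all UMIs of a class sum and scaled to 1e+06. A 3' library counts each transcript once, so levels were not divided by gene length. Over the 5 classes fibroblast-like, mesothelial-like, ductal epithelial-like, macrophage or monocyte-like and neutrophil-like, 16 members in both all live libraries had their highest level in fibroblast-like cells (Mmp2, Mmp3, Mmp11, Mmp14, Mmp23, Timp1, Timp3, Reck, Adam12, Adamts2, Adamts4, Adamts5, Adamts10, Adamts12, Adamts15 and Ctsk). Among these classes, macrophage or monocyte-like cells held the highest level of 8 (Mmp12, Mmp19, Adam8, Adam10, Adam15, Adam17, Ctsb and Ctss), neutrophil-like cells of 2 (Mmp8 and Mmp9) and ductal epithelial-like cells of 2 (Mmp7 and Mmp15). Mmp10 was at or under 3 UMIs in every class sum of these libraries, and for the remaining members no class was highest in both. For Timp2, Adamts1, Adamts9 and Ctsl the highest class of all live 1 was mesothelial-like, which had too few cells for a sum in all live 2. Timp3 was nearly level in all live 1, at 564 CPM in fibroblast-like and 563 in mesothelial-like cells. Adam9, a widely expressed ADAM, stood at 104 and 71.7 CPM in fibroblast-like, 129.6 and 87.3 in ductal epithelial-like and 83.3 and 101.4 in macrophage or monocyte-like cells of tumors 1 and 2. Adam15 stood at 78.7 and 71.1 CPM in macrophage or monocyte-like and 37.7 and 22.1 in fibroblast-like cells. Adamts12 was rare, at 2.96 and 8.27 CPM in fibroblast-like cells. Of its 154 UMIs over all libraries, 21.4% came from named classes outside these 5. The share of all genes highest in each class was not computed, so the counts of members by class only describe these genes. Smaller classes were not ranked. Blood endothelial-like Adam15, Adamts1 and Adamts9 were read above the ranked classes in both tumors. So were pericyte-like Adamts1, Adamts2 and Adamts4 in tumor 2. These levels are given at the end.

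**Figure D1:**
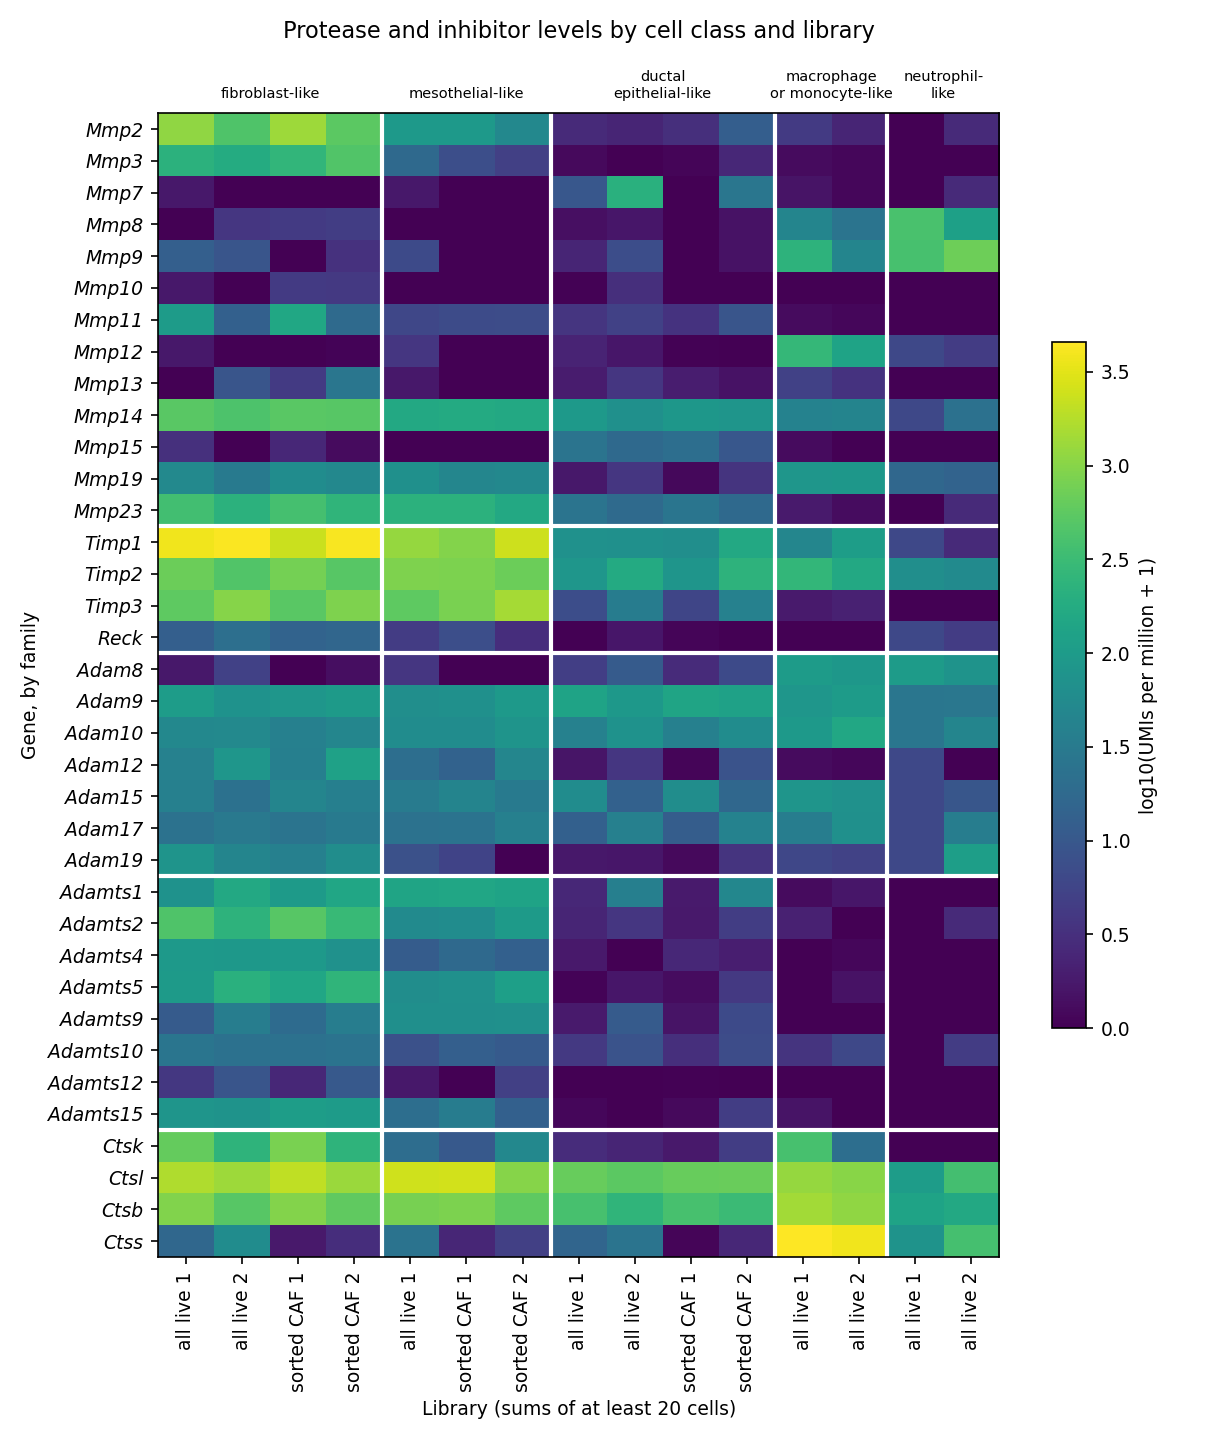
Each row is 1 of the 36 genes, grouped by family, and each column is the UMI sum of 1 cell class in 1 library (at least 20 cells). The color gives log10(CPM + 1). Yellow marks high and dark blue low levels. Bright fields for Timp1 in the fibroblast-like columns (3767, 4353, 2347 and 4247 CPM) and for Ctss in the macrophage or monocyte-like columns (4559 and 3755 CPM) show their main classes.

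The first question was which members separate fibroblast-like from epithelial cells. Of 33 members tested in the all live libraries, 17 were lower and 2 higher in ductal epithelial-like than in fibroblast-like cells, where 12.700% of all 10357 genes tested passed, 3.970% as higher and 8.720% as lower (edgeR quasi-likelihood test, Benjamini-Hochberg adjusted p below 0.05). The median log2 fold change was -2.57 over the members tested and 0.05 over all genes. By family, 4 of 4 inhibitors, 4 of 7 ADAMTS proteases, 6 of 11 MMPs, 2 of 7 ADAMs and 1 of 4 cathepsins were lower in the ductal epithelial-like cells. Mmp10, Mmp13 and Adamts12 had too few counts to be tested.

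Mmp2 encodes gelatinase A. Its ductal epithelial-like level was 1.70 and 1.39 CPM for tumors 1 and 2, in the order kept below, and it stood at 1114 and 443 in fibroblast-like cells (log2 fold change -8.80, SE 0.79, adjusted p = 5.20e-04). Mmp14, the membrane-type enzyme that activates pro-Mmp2, was present in both classes, at 93.4 and 67.2 against 535 and 439 CPM (log2 fold change -2.57, SE 0.50, adjusted p = 0.0105). The groups did not overlap for either gene, and Mmp14 kept a readable level in the epithelium where Mmp2 was nearly absent. Here and below, a lack of overlap only describes the levels given, since its share over all genes was not computed. Mmp3, a stromelysin, was read at 0.257 and 0 against 226 and 177 CPM (log2 fold change -9.50, SE 0.74, adjusted p = 5.20e-04). Mmp23, a membrane-anchored MMP, stood at 24.8 and 17.3 against 353 and 223 CPM (log2 fold change -3.71, SE 0.55, adjusted p = 0.00306). In the epithelium Mmp3 was at a trace and Mmp23 at a low level. Mmp19, a secreted MMP that macrophages also make, stood at 0.721 and 2.77 against 51.03 and 31.7 CPM (log2 fold change -5.05, SE 0.68, adjusted p = 0.00189). Mmp11, a stromelysin of tumor stroma, stood at 2.68 and 4.16 against 99.8 and 12.4 CPM (log2 fold change -4.10, SE 0.92, adjusted p = 0.0232). For Mmp11 the fibroblast-like level of tumor 1 was the high one in both fractions.

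Matrilysin (Mmp7), an epithelial MMP with no hemopexin domain, and the membrane-type enzyme Mmp15 went the other way. Mmp7 was counted at 8.80 and 206 CPM in the ductal and 0.739 and 0 in the fibroblast-like sums, 469 against 1 UMIs in all, a ratio of 46.7 (interval 8.34 to 1848) with an adjusted p of 0.0206. Such count ratios, here and below, pool the UMIs of both tumors, and their intervals cover counting error only. Tumor 1 gave 19422805 and tumor 2 1443203 of all ductal UMIs, so pooled ductal levels lean on tumor 1. Mmp15 was counted at 24.2 and 16.6 against 2.22 and 0 CPM, a ratio of 16.4 (interval 5.59 to 79.9) with an adjusted p of 0.0439. Mmp7 was far from even within the epithelium. In the cluster led by Wfdc18, Agr2 and Epcam, Mmp7 stood at 413 and 119 CPM in tumors 1 and 2, against 0.175 in the cycling cluster and 0 in the Ttr-positive cluster of tumor 1. Mmp15 showed no such restriction, with 7.38 and 13.6 CPM in the first cluster and 14.1 and 30.1 in the others. Few cells carried the Mmp7 signal of tumor 1: its 171 ductal UMIs came from 12 cells, and 83 of them from a single cell.

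All 4 inhibitors were lower in the epithelium. Timp1, a secreted inhibitor and a known product of activated stroma, was read at 69.7 and 67.2 CPM there and 3767 and 4353 in fibroblast-like cells (log2 fold change -5.89, SE 0.65, adjusted p = 8.82e-04). Timp3, which binds the matrix and also inhibits Adam17 and aggrecanases, stood at 6.33 and 33.95 against 564 and 978 CPM (log2 fold change -5.44, SE 0.83, adjusted p = 0.00475). Timp2 was the inhibitor with the smallest difference, at 83.4 and 174 against 681 and 461 CPM (log2 fold change -2.20, SE 0.49, adjusted p = 0.0195). Reck was rare, with 31 fibroblast-like against 1 ductal UMI (11.8 and 20.7 against 0 and 0.693 CPM), a ratio of 311 (interval 51.9 to 12689.9). For each of these inhibitors both fibroblast-like levels were above both ductal ones, and the share of all genes so separated was not computed.

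The ADAM family split. Adam12 and Adam19, ADAMs of mesenchymal cells, were lower in the ductal epithelial-like cells (Adam12 0.618 and 2.77 against 39.9 and 82.7 CPM, log2 fold change -5.74, SE 0.94, adjusted p = 0.00487; Adam19 0.721 and 0.693 against 78.4 and 45.5 CPM, log2 fold change -6.29). Adam9, Adam10, Adam15, Adam17 and Adam8 did not pass. The sheddases Adam10 and Adam17, which release Notch and TNF family proteins, stood at 39.9 and 71.4 and at 12.4 and 38.8 CPM in the epithelium of tumors 1 and 2, and at 49.5 and 52.4 and at 22.9 and 28.96 in fibroblast-like cells. Summed over the family, ADAM levels ranged only from 174 to 483 CPM over all 15 class sums, the narrowest range of the 5 families.

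ADAMTS proteases summed to 823 and 830.1 CPM in the fibroblast-like sums and 7.88 and 58.2 in the ductal ones. Adamts2, the procollagen N-proteinase, stood at 1.39 and 2.77 against 442 and 232 CPM (log2 fold change -7.50, SE 0.95, adjusted p = 0.00143). Adamts5, an aggrecanase, had 284 fibroblast-like against 3 ductal UMIs, a ratio of 951 (interval 322 to 4638). The proteoglycanases Adamts4 and Adamts15 were lower in the epithelium as well: Adamts4 stood at 0.772 and 0 against 93.2 and 88.3 CPM (log2 fold change -6.99, SE 0.81, adjusted p = 0.00142), and Adamts15 had 3 ductal and 161 fibroblast-like UMIs, a ratio of 539 (interval 181 to 2641). Adamts1 did not pass: it had 1.54 and 36.7 CPM in the epithelium and 72.5 and 161 in fibroblast-like cells. With the tumor as a block, where 18.700% of genes passed, 21 members passed, with Adamts1 (adjusted p = 0.00799) and Adamts10 (0.0210) added as lower. Among cathepsins only Ctsk, the collagen-degrading cathepsin of osteoclasts and fibroblasts, was lower in the epithelium, at 1.96 and 1.39 against 619.7 and 237 CPM (log2 fold change -7.79, SE 1.46, adjusted p = 0.0110).

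The call depended on single sums for 8 of the 19 members; here and below, a group left with 1 sum was assumed to vary like the others. Without the fibroblast-like sum of tumor 1, 12 members passed, without that of tumor 2, 13, and without the ductal sum of tumor 1 or 2, 14 or 21. The calls for Mmp7, Mmp11, Mmp14, Mmp15, Timp2, Adam12, Ctsk and Reck were lost in at least 1 of these fits, with adjusted p from 0.0541 to 0.603, and every direction was kept. Mmp15 also missed the threshold with DESeq2 (adjusted p = 0.124) and with the doublet calls kept (0.0550).

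The same contrast was made in the sorted CAF libraries, which the fit above did not use. Of 27 members tested, 19 were lower and 1 higher in ductal epithelial-like cells, against 22.000% of 10506 genes, 8.390% as higher and 13.600% as lower (member median -4.10, all genes 0.06). Mmp15 was again the higher one, at 19.7 and 8.69 against 1.58 and 0.273 CPM (log2 fold change 4.87, SE 1.05, adjusted p = 0.0171), and Mmp7 had too few counts to be tested. The 17 members lower in the all live libraries were among the 19, joined by Adamts9 (0.550 and 5.62 against 18.2 and 34.5 CPM, log2 fold change -3.67) and Adamts10 (2.08 and 6.14 against 22.2 and 23.96 CPM, -2.67), a protease linked to fibrillin microfibrils. Several secreted matrix enzymes were close to absent from the sorted epithelium. Adamts5 stood at 0.306 and 3.07 against 144 and 246 CPM (-7.62), Mmp3 at 0.122 and 1.53 against 255 and 466 (-9.79) and Adamts2 at 0.795 and 3.58 against 508 and 295 (-7.91). Mmp2 stood at 2.14 and 11.2 against 1338 and 540.3 CPM (-7.34), Ctsk at 0.795 and 3.58 against 831 and 239 (-8.31) and Timp3 at 4.77 and 39.4 against 526 and 907 (-5.19). Without the fibroblast-like sum of sorted CAF 1, 17 members passed, and without its ductal sum, 20; the calls of Mmp11, Timp2, Adam12 and Adamts10 were lost in the first fit (adjusted p = 0.221, 0.127, 0.0650 and 0.0607) and those of Mmp11 and Mmp15 in the second (0.0824 and 0.137). Without the fibroblast-like sum of sorted CAF 2, 14 passed, and Mmp15, Timp2, Adam12, Adam19, Adamts9 and Adamts10 were lost.

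Macrophage or monocyte-like cells carried a different set. Of 33 members tested, 5 were higher and 17 lower than in fibroblast-like cells of the same libraries, where 18.300% of 10357 genes passed, 6.710% as higher and 11.600% as lower (member median -3.12, all genes -0.01). The 5 higher genes were Mmp8, Mmp9, Mmp12, Adam8 and Ctss. Mmp12, the macrophage metalloelastase, was counted at 274 and 132 CPM in tumors 1 and 2 and in fibroblast-like cells at 0.739 and 0, a ratio of 383 (interval 68.7 to 15155) with an adjusted p of 6.01e-04. Mmp9, gelatinase B, stood at 231 and 45.3 against 11.8 and 8.27 CPM (log2 fold change 3.92, SE 0.89, adjusted p = 0.0140). Both were higher in tumor 1, and in tumor 2 Mmp19, at 81.3 and 86.1 CPM in tumors 1 and 2, stood above Mmp9. Mmp8, the neutrophil collagenase, was counted at 44.6 and 24.2 against 0 and 2.76 CPM, a ratio of 32.98 (interval 9.05 to 274) with an adjusted p of 0.0146.

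Adam8, an ADAM of myeloid cells, stood at 102 and 84.9 CPM in macrophage or monocyte-like cells and 0.739 and 4.14 in fibroblast-like cells (log2 fold change 5.65, SE 0.83, adjusted p = 0.00194). Ctss, the cathepsin that processes the invariant chain of MHC class II, was the highest member of this class, at 4559 and 3755 against 15.5 and 59.3 CPM (log2 fold change 6.97, SE 0.94, adjusted p = 0.00141). In the fibroblast-like sums the 11 macrophage markers added up to 288 and 346 CPM, with all 11 counted, and their part in the fibroblast-like Ctss reading was not tested. The other lysosomal cathepsins did not pass: Ctsb stood at 1412 and 1128 against 937 and 512 and Ctsl at 1208 and 1005 against 1682 and 1316 CPM. Ctsk in macrophages differed strongly between the tumors, at 387 and 19.9 CPM. Adam10 stood at 95.5 and 153 against 49.5 and 52.4 CPM and passed only with the tumor as a block (adjusted p = 0.0206, against 0.0588 without it), a fit in which 22.700% of genes passed.

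The lower genes included all 7 ADAMTS proteases tested, 3 of 4 inhibitors, 5 of 11 MMPs and 2 of 7 ADAMs. Timp1 was read at 46.3 and 108 against 3767 and 4353 CPM (log2 fold change -5.54) and Timp3 at 0.868 and 1.19 against 564 and 978 (-9.32). Timp2 was the exception among the TIMPs and did not pass, at 264 and 162 against 681 and 461 CPM. Reck and Adamts9 had 0 UMIs in this class, which puts them at least 46.4-fold and 58.3-fold lower against a floor of 3 counts over the group. Among MMPs, Mmp2 stood at 3.18 and 1.36 CPM in macrophages (log2 fold change -8.26), Mmp23 at 0.868 and 0.341 (-8.76) and Mmp14 at 40.5 and 44.5 (-3.34). Mmp3 and Mmp11 had 2 macrophage UMIs each, with ratios of 974 (interval 268 to 8067) and 323 (interval 87.8 to 2694) in favor of the fibroblast-like cells. The ADAMTS proteases were near zero throughout, with 16 and 39 UMIs for the whole family in tumors 1 and 2. Adamts2 stood at 1.16 and 0 and Adamts1 at 0.289 and 0.682 CPM, and Adamts4, Adamts5 and Adamts15 had 1, 3 and 2 UMIs. Adam12 had 2 UMIs and Adam19 stood at 4.92 and 4.26 against 78.4 and 45.5 CPM (log2 fold change -3.58, SE 0.83, adjusted p = 0.0153). Leaving out a single sum left 15 to 18 members: Adamts9, Adamts10 and Reck lost the call in each of the 4 fits (adjusted p 0.0509 to 0.291), and Mmp8, Mmp9, Mmp11, Adam19 and Adamts1 in at least 1.

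Several of the MMPs named above are neighbors. Mmp13, Mmp12, Mmp3, Mmp10, Mmp8 and Mmp7 lie in a run of 10 MMP genes on chromosome 9 (GRCm38, chr9:7272514-7699585) that contains no other protein-coding gene, in that map order and all on the forward strand; Mmp1b, Mmp1a, Mmp27 and Mmp20 fill the gaps. Over all libraries their UMIs came from different classes. Of 5929 Mmp3 UMIs 99.0% came from fibroblast-like cells, of 545 Mmp7 UMIs 95.6% from ductal epithelial-like cells, and of 2667 Mmp12 UMIs 77.9% from macrophage or monocyte-like cells, with another 19.5% from unnamed clusters. Some of these unnamed clusters carried 10 macrophage or monocyte markers. Mmp8 (566 UMIs) was split between macrophage or monocyte-like (52.3%) and neutrophil-like cells (26.0%). Mmp13 (415 UMIs) and Mmp10 (47 UMIs) were 72.8% and 80.9% fibroblast-like over all libraries, but these shares came from the sorted CAF libraries (84.6% of 350 and 94.9% of 39 UMIs). In the all live libraries 9.23% of 65 Mmp13 UMIs were fibroblast-like, 43.1% macrophage or monocyte-like and 33.8% ductal epithelial-like, and 1 of 8 Mmp10 UMIs was fibroblast-like. Mmp12 overlaps Mmp1b, which lies on the opposite strand and had 0 UMIs. These shares follow class sizes as well as levels, since the sorted fractions enrich fibroblast-like cells.

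**Figure D2:**
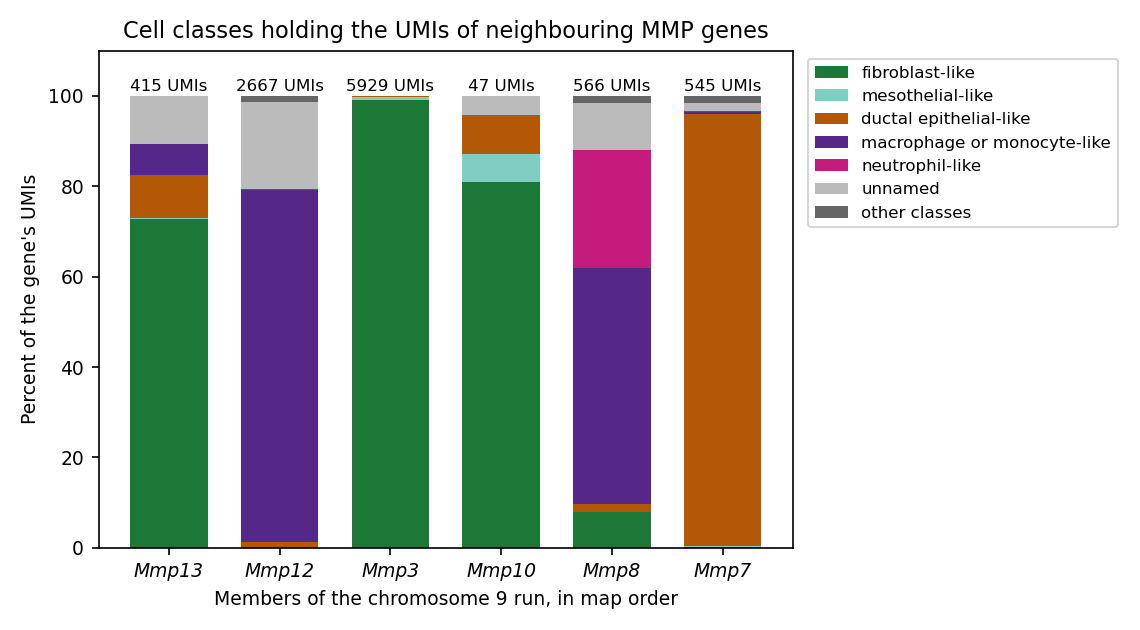
Each bar is 1 of the 6 members of the chromosome 9 run in map order, and the stacked colors give the percent of its UMIs, over all 4 libraries, that came from each class. The neighbors Mmp12 (77.9% macrophage or monocyte-like) and Mmp3 (99.0% fibroblast-like) have different sources.

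To show what stands before these start sites, the 120 bases upstream of each of the 6 genes are printed from RefSeq (GRCm38.p6, forward strand, 5′ to 3′). The capitals mark the AP-1 motif TGAGTCA or, on the other strand, TGACTCA, the site bound by Fos and Jun proteins and known from MMP promoters. The windows are chr9:7272394-7272513 for Mmp13, chr9:7347254-7347373 for Mmp12, chr9:7445702-7445821 for Mmp3, chr9:7502222-7502341 for Mmp10, chr9:7558309-7558428 for Mmp8 and chr9:7691970-7692089 for Mmp7.
Mmp13: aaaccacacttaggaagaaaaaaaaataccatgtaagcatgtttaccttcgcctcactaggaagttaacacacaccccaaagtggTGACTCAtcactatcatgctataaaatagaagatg
Mmp12: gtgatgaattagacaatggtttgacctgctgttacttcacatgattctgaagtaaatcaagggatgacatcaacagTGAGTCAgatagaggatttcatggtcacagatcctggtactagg
Mmp3: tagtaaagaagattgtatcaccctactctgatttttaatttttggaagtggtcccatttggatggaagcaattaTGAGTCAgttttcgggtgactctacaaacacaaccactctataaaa
Mmp10: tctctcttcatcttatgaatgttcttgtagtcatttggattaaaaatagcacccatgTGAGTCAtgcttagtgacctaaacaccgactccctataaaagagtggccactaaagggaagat
Mmp8: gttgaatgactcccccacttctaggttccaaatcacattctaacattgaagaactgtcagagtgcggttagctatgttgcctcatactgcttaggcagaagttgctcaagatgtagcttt
Mmp7: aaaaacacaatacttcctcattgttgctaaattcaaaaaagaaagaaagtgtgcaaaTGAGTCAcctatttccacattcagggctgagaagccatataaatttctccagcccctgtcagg

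The motif was found once in 5 of the 6 windows, at 35 (Mmp13), 44 (Mmp12), 46 (Mmp3) and 63 bases (Mmp10 and Mmp7) before the start, and not in the Mmp8 window. These 6 genes had 8 promoter entries, and windows overlapping an annotated exon were not printed. Of the 8 entries 62.5% held the motif on either strand, against 2.30% of all 32851 promoter entries of the same length. RefSeq promoter entries were matched for 26 of the 36 members, and none of the 16 matched ADAM, ADAMTS, cathepsin and inhibitor genes had the motif in this window. Of the 10 matched MMP genes 5 had it, all of them in this run. The match is a description of the sequence only.

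Neutrophil-like cells were set against macrophage or monocyte-like cells, the other myeloid class. None of 33 members was higher and 3 were lower, where 1.090% of 10357 genes passed, 0.473% as higher and 0.618% as lower (member median -1.51, or -1.45 with genes at 0 placed at their bound, all genes -0.17). The lower members were Mmp12 (1721 macrophage or monocyte-like against 3 neutrophil-like UMIs, ratio 47.9 (interval 16.3 to 232), adjusted p = 0.0269), Timp1 (796 against 2 UMIs, 46.3 and 108 against 5.27 and 1.70 CPM, ratio 33.2 (interval 9.16 to 275), adjusted p = 0.0443) and Ctsb. Ctsb stood at 132 and 159.8 CPM in neutrophil-like cells against 1412 and 1128 in macrophages (log2 fold change -2.80, SE 0.52, adjusted p = 0.0454). No member passed once any 1 of the 4 sums was left out (adjusted p 0.0766 to 0.299 for these 3), and 26 cells made up the neutrophil-like sum of tumor 1.

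The granule enzymes that neutrophils are known for did not pass without a block. Mmp8 stood at 401 and 119 against 44.6 and 24.2 CPM (log2 fold change 3.33, SE 0.84, adjusted p = 0.115) and Mmp9 at 390.1 and 711 against 231 and 45.3 CPM (log2 fold change 2.30, SE 0.79, adjusted p = 0.230). For each gene both neutrophil-like levels were above both macrophage levels, and the share of all genes so separated was not computed. With the tumor as a block 7 members passed, 2 higher and 5 lower, against 2.720% of genes: Mmp8 (log2 fold change 3.13, SE 0.64, adjusted p = 0.0338) and Adam19 (log2 fold change 3.99, SE 0.80, adjusted p = 0.0298) were higher, and Ctss, Ctsk, Mmp12, Timp1 and Ctsb lower. Adam19 was high in 1 of the tumors only, at 5.27 and 111 CPM. Neutrophil-like cells had no Ctsk UMI, 0 ADAMTS UMIs in tumor 1 and 3 in tumor 2. The macrophage markers summed to 11391 and 4860.1 CPM in these 2 sums, beside 276723 and 149840.0 for the neutrophil markers, and their part in the results was not tested.

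Inhibitor and enzyme were also compared within each sum, as the ratio of Timp1, Timp2 and Timp3 UMIs to the UMIs of the 13 MMPs. Intervals are exact and, as for all levels here, cover counting error only. In fibroblast-like cells the ratio was 2.09 (interval 2.01 to 2.18) in all live 1, 4.31 (interval 4.02 to 4.62) in all live 2, 1.35 (interval 1.29 to 1.41) in sorted CAF 1 and 3.03 (interval 2.98 to 3.08) in sorted CAF 2. Tumor 2 was above tumor 1 in both fractions, and every fibroblast-like ratio was above 1. Mesothelial-like cells were higher still, at 4.60 (interval 4.26 to 4.97) in all live 1, 4.87 (interval 4.50 to 5.28) in sorted CAF 1 and 10.6 (interval 9.19 to 12.2) in sorted CAF 2. The last sum had 34 cells. In tumor 2, 10 of 45 mesothelial-like cells held 78.3% of the Timp1 and 69.8% of the Timp3 UMIs. In the all live libraries macrophage or monocyte-like cells had ratios of 0.457 and 0.806, and neutrophil-like cells of 0.0839 (interval 0.0437 to 0.148) and 0.0661 (interval 0.0453 to 0.0936). The order fibroblast-like, macrophage or monocyte-like, neutrophil-like held in both tumors. Ductal epithelial-like ratios were 0.992 and 0.838 in the all live and 1.09 and 2.76 in the sorted CAF libraries of tumors 1 and 2. In all live 2 the intervals of ductal epithelial-like (0.731 to 0.959) and macrophage or monocyte-like cells (0.754 to 0.862) overlapped. A transcript ratio counts RNA and says nothing of protein or activity.

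**Figure D3:**
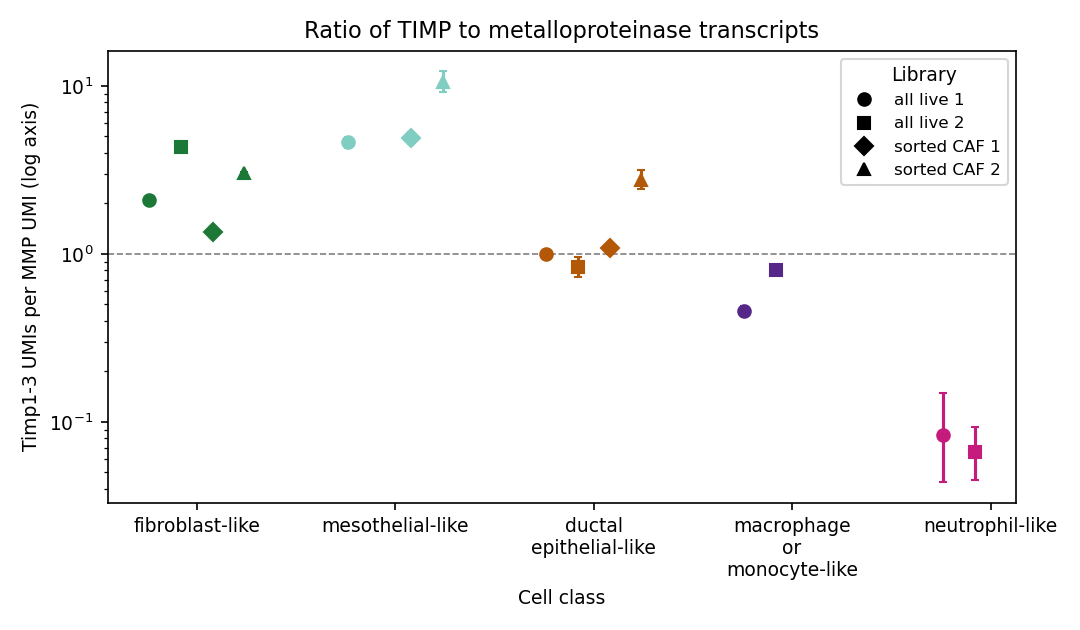
Each point is the ratio of Timp1, Timp2 and Timp3 UMIs to the UMIs of 13 MMPs in 1 class and library, on a log axis, with exact intervals for counting error. The dashed line marks equal counts. Mesothelial-like and fibroblast-like sums lie above 1 and both neutrophil-like sums below 0.1.

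Mesothelial-like cells, which line the peritoneal surface of the organ, were compared with fibroblast-like cells in the sorted CAF libraries, because the all live library of tumor 2 held only 11 of them. Of 27 members tested, 1 was lower and none higher, where 1.180% of 10506 genes passed, 0.619% as higher and 0.562% as lower (member median -1.14, -1.04 with genes at 0 at their bound, all genes -0.01). That gene was Mmp3, at 6.58 and 4.02 CPM in mesothelial-like and 255 and 466 in fibroblast-like cells (log2 fold change -6.07, SE 0.82, adjusted p = 0.0242). The call was lost when any of the 4 sums was left out (adjusted p 0.133 to 0.166; without the fibroblast-like or the mesothelial-like sum of sorted CAF 1, 0.134 and 0.147) and with the doublet calls kept (0.460). With a tumor block Adamts4 was lower as well (16.8 and 12.05 against 95.03 and 70.7 CPM, log2 fold change -2.60, SE 0.37, adjusted p = 0.0215), 2 members in all against 2.260% of genes. Without a block 10 of the 27 members and 1158 of the 10506 genes had an unadjusted p below 0.05.

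Levels set beside each other show where the 2 stromal classes stood. Mmp2 was read at 89.96 and 50.2 CPM in mesothelial-like cells and 1338 and 540.3 in fibroblast-like cells (adjusted p = 0.0716), and Ctsk at 9.51 and 50.2 against 831 and 239 (0.0961). Both gaps were wide in each tumor and missed the threshold. Timp2 and Ctsl did not pass either: Timp2 stood at 859 and 695 against 783 and 507 CPM, and Ctsl at 2521 and 984 against 2006 and 1281. Timp3, which did not pass, stood higher in the mesothelial-like cells of both tumors, at 823 and 1484 against 526 and 907 CPM. Adamts9, a versican-cleaving protease, was steady in mesothelial-like cells, at 65.8, 65.1 and 68.3 CPM in all live 1 and the 2 sorted CAF libraries. Its fibroblast-like levels were 10.4 and 34.5 in the all live and 18.2 and 34.5 in the sorted CAF libraries. In tumor 2 the mesothelial-like Timp1 value rests on few cells, since 10 of 45 cells held 78.3% of its 1315 UMIs and 1 cell held 656.

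Within the fibroblast-like cells, states were compared by numbered subclusters built without the members. Subcluster 5 carried 9 of 10 inflammatory fibroblast markers (Il6, Cxcl12, Clec3b, Has1 and others), and subclusters 3 and 4 carried 7 and 3 of 11 myofibroblast markers, with Acta2 and Myl9 in both. Subcluster 4 was led by cycling genes (Hmmr, Cdc20). Among the 10 leading genes of subcluster 3 was Cspg4, a pericyte marker, and none of its own markers, so the contrast is stated by number. The UMIs of both fractions were summed per tumor, giving 31 and 265 cells of subcluster 5 and 57 and 213 of subclusters 3 and 4.

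Of 28 members tested, 3 were higher and 3 lower in subcluster 5 than in subclusters 3 and 4, where 4.020% of 9450 genes passed, 2.050% as higher and 1.970% as lower. Of the 8896 genes not used to build the subclusters 2.090% passed, 1.030% as higher and 1.060% as lower (member median 0.64, all genes -0.00). The higher members were 3 of the 8 ADAMTS proteases. Adamts5 stood at 241 and 569.8 CPM in tumors 1 and 2, against 29.7 and 54.9 (log2 fold change 3.33, SE 0.53, adjusted p = 0.00749). Adamts15 stood at 188 and 194 against 7.41 and 33.9 CPM (log2 fold change 3.10, SE 0.53, adjusted p = 0.0103), and Adamts1, a versican- and aggrecan-cleaving protease, at 171 and 284 against 63.8 and 58.97 CPM (log2 fold change 2.00, SE 0.40, adjusted p = 0.0200). All 3 were higher in subcluster 5 in each tumor. The lower members were 2 of the 4 inhibitors and a collagenase. Timp1 stood at 495 and 1295 against 6382 and 5392 CPM (log2 fold change -2.62, SE 0.52, adjusted p = 0.0201) and Timp3 at 105 and 93.9 against 593 and 1863 CPM (log2 fold change -3.58, SE 0.55, adjusted p = 0.00669). Mmp13 had 2 UMIs in subcluster 5 (0 and 0.725 CPM) and 79 in subclusters 3 and 4 (5.93 and 27.6 CPM), a ratio of 34.8 (interval 9.32 to 292) with an adjusted p of 0.0332. Few cells carried Mmp13: all fibroblast-like cells of tumor 1 held 4 UMIs, from 2 cells. In tumor 2, 1 fibroblast-like cell held 109 of 298. The directions of Timp1 and Timp3 were opposite to that of Timp2, which stood at 775 and 745 against 470.1 and 406 CPM.

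Markers of other cells differed between these sums. The 9 ductal epithelial markers summed to 188 and 29.02 CPM in subcluster 5 (7 and 9 counted, Epcam and Cdh1 at 0 in tumor 1) and to 1435 and 70.03 in subclusters 3 and 4 (8 and 9 counted, Cldn4 at 0 in tumor 1). The 6 pericyte markers summed to 70.04 and 22.5 against 80.1 and 105 CPM (4 and 6 counted against 4 and 5). Their part in the result was not tested. The calls depended on how the cells were filtered and grouped. With the cells of high doublet score kept, clusters and subclusters were built and named anew, and no member passed. Mmp13 gave no value in that fit. Adjusted p was 0.140 for Timp3, 0.264 for Timp1 and 0.321 for Adamts5, and the log2 fold changes kept their signs (-2.53, -2.16 and 1.82). The calls of Mmp13 and Adamts1 were lost without the subcluster 5 sum of tumor 2 (adjusted p = 0.430 and 0.137), and that of Mmp13 with DESeq2 (0.105). Without sorted CAF 1, tumor 1 had 16 cells of subcluster 5, under the minimum of 20 for a sum, and gave no value. With the tumor as a block 13 members passed, 8 higher and 5 lower, against 12.800% of genes. That fit added Mmp14 (-1.26) and Adam19 (-1.43) as lower, and Adamts2 (1.25), Adamts9 (1.58), Mmp23 (1.09), Adamts4 (0.94) and Timp2 (0.85) as higher, as log2 fold change.

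**Figure D4:**
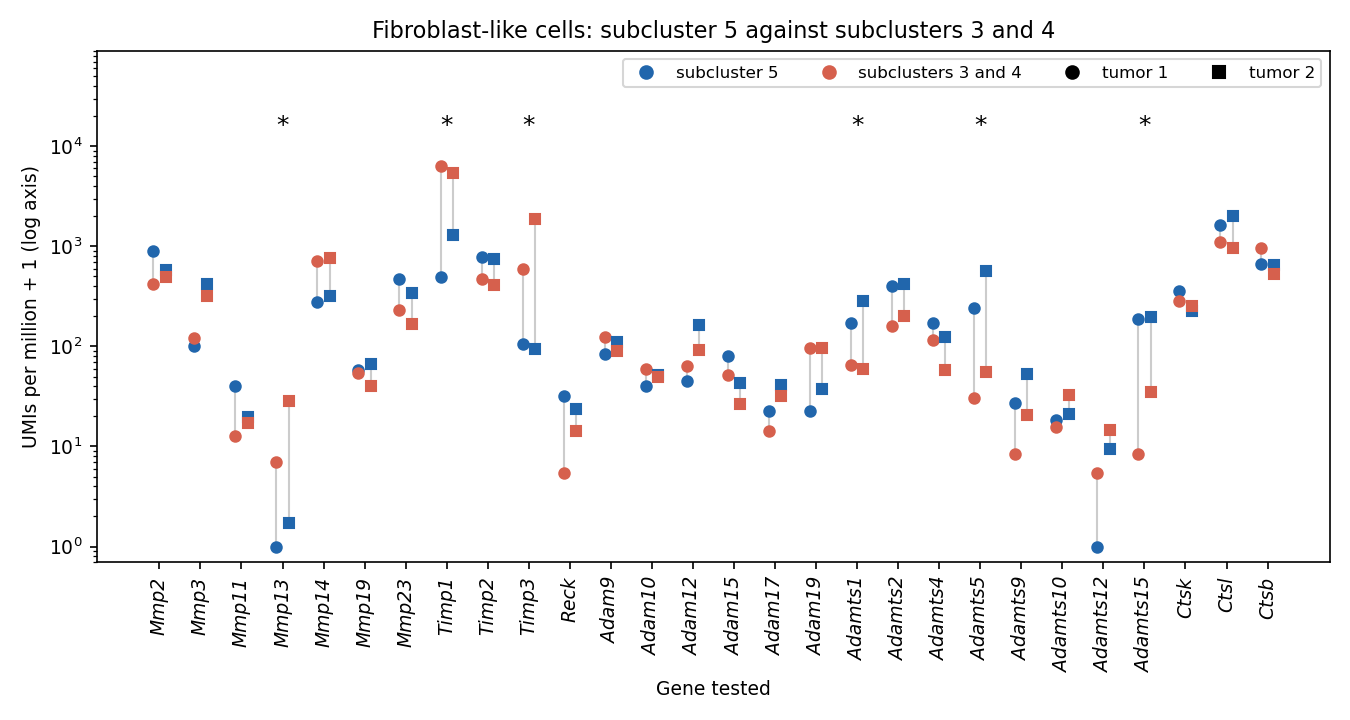
For each tested gene, points give CPM plus 1 (log axis) in subcluster 5 and in subclusters 3 and 4 together, for tumor 1 (circles) and tumor 2 (squares), both fractions summed; a star marks an adjusted p below 0.05. Timp1 and Timp3 lie higher in subclusters 3 and 4 and Adamts5 and Adamts15 higher in subcluster 5.

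A similar split was visible between 2 of the fibroblast-like clusters in every library. In the fibroblast-like cluster led by Tnc, Cxcl14 and Tagln, Timp1 reached 7523 and 5812 CPM (all live) and 6294 and 5827 (sorted CAF) in tumors 1 and 2. In the cluster led by Clec3b, Tnxb and Dpt it stood at 623 and 1652 and at 1084 and 1788, in the same order. Adamts5 ran the other way, at 25.3 and 106 and 10.3 and 94.2 CPM in the first cluster and 171 and 401 and 184 and 487 in the second. The clusters did not overlap for either gene, in either fraction. These values describe the same cells as the subclusters and add no independent test.

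The other subclusters had patterns of their own, given as levels without a test. Subcluster 1, led by Gpnmb and Itgbl1 and found mainly in tumor 1, held Mmp2 at 1869, Ctsk at 1181, Adamts2 at 713 and Mmp11 at 231 CPM, against 584, 269, 238 and 16.7 in the other fibroblast-like cells of that tumor. The high Mmp11 of tumor 1 lay there. Subcluster 2, led by Ccl24 and Gdf10 and found mainly in tumor 2, held Mmp3 at 691 and Mmp13 at 71.6 CPM, against 363 and 9.24 in the rest. Mmp13 was concentrated in few cells: 10 cells held 84.2% of the 298 fibroblast-like Mmp13 UMIs of tumor 2. Mmp3 was spread more widely there, with UMIs in 458 of 1011 fibroblast-like cells and 21.3% of 5244 UMIs in 10 cells, whereas in tumor 1 10 cells held 62.1% of 628 UMIs. Adam19 stood in subcluster 3 of tumors 1 and 2 at 109 and 120.2 CPM against 47.4 and 51.5 elsewhere. Subcluster 6 carried 6 of 7 antigen-presenting fibroblast markers and was named for them by the marker rule. The mesothelial genes Msln and Upk1b were among its leading genes, so that name is not used here. In its 21 cells of tumor 2, Timp1 stood at 9836 and Timp3 at 2015 CPM, Mmp3 at 13.3, Ctsk at 34.7 and Adamts15 at 0.

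Macrophage or monocyte-like cells were subclustered in the same way, and their proteases were uneven. Subcluster 0, led by the cycling genes Nusap1 and Cenpf, held Ctsk at 2343 and 112 CPM in tumors 1 and 2, against 53.7 and 6.70 in the remaining macrophages, and Mmp9 at 1340.4 and 268 against 41.5 and 17.2. Ctsk and Mmp9 are both products of osteoclasts, and Acp5 encodes the acid phosphatase of osteoclasts, which macrophages also make. In tumor 1, 11 of 46 cells of subcluster 0 had UMIs of both genes, and in tumor 2, 4 of 139; all of these also had Acp5 UMIs. Acp5 was common in macrophages at large, with UMIs in 35 of 46 cells of subcluster 0 and 293 of 348 of subcluster 1 in tumor 1, and in 55 of 139 cells of subcluster 0 in tumor 2. Elsewhere both genes were found together in 4 of 348 cells of subcluster 1 and 2 of 57 of subcluster 3 of tumor 1, and in 2 of 683 of subcluster 2 of tumor 2. The Ctsk and Mmp9 levels of whole macrophage sums came from few cells: 10 cells held 94.2% of the Ctsk UMIs of tumor 1 and 80.5% of those of tumor 2, and 90.2% and 61.5% of the Mmp9 UMIs.

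Subcluster 3, led by Prg4, Serpinb2 and Tnfrsf9, held Adam8 at 307 and 178 CPM in tumors 1 and 2, against 70.4 and 84.1 in the rest. Its Mmp12 level differed between tumors, at 296 and 2906 CPM. The tumor 2 value is a sum of 40 cells, 36 of all live 2 and 4 of sorted CAF 2. In sorted CAF 1 and 2 together, 1 and 16 macrophage or monocyte-like cells held 357 Mmp12 UMIs. The part of sorted cells in the subcluster 3 level was not tested. Over all macrophage or monocyte-like cells of tumor 2, 10 cells held 52.7% of 1131 Mmp12 UMIs and 1 cell held 241. Mmp12 was lowest where monocyte or antigen-presentation genes led, at 30.03 CPM in subcluster 4 (Isg15, H2-Aa) and 16.3 in subcluster 5 (Ly6c2, Plac8) of tumor 2. Subcluster 5 had Mmp8 at 122 CPM instead, where subcluster 2 (Ms4a7) of the same tumor had 8.55. Ctss, by contrast, stood between 2528 and 5146 CPM in every macrophage subcluster.

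**Figure D5:**
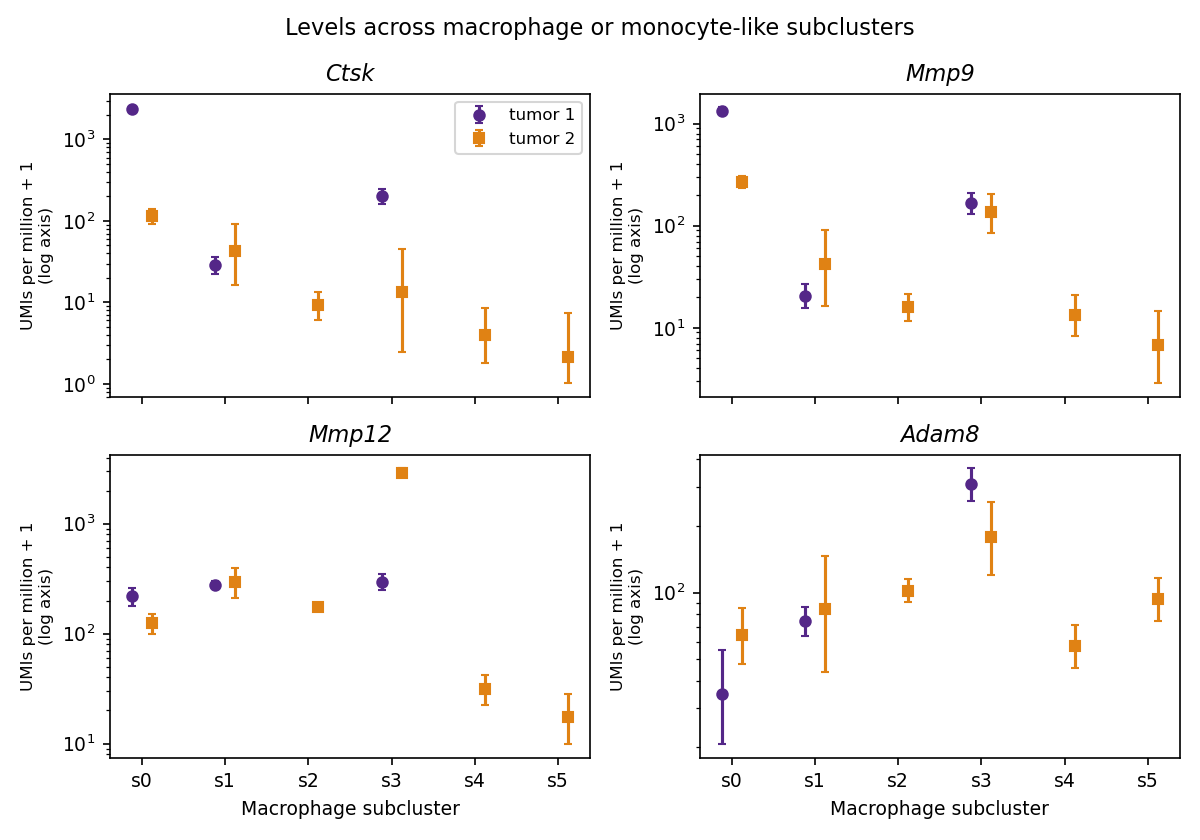
Panels show single genes; points give CPM plus 1 (log axis) in each macrophage or monocyte-like subcluster of at least 20 cells, with exact counting intervals, for tumor 1 and tumor 2. Both fractions are summed. Ctsk and Mmp9 peak in subcluster 0 of both tumors.

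The gate itself was then examined. Over whole libraries no member passed between the sorted CAF and all live fractions (0 of 35 tested, against 0.000% of 14030 genes; 5 members and 542 genes had an unadjusted p below 0.05), although the member median was 1.12 and that of all genes 0.05. Without sorted CAF 1 the count was also 0. The sorted libraries were unlike each other. Whole-library Mmp2 was 56.1 and 24.6 CPM for all live 1 and 2 and 82.3 and 393 for sorted CAF 1 and 2, and Timp1 was 303 and 321 and 261 and 3172. Only sorted CAF 2 was far above the all live libraries for these fibroblast genes. Adam8 and Ctss were low in both sorted libraries, at 1.85 and 2.81 and 0.661 and 37.1 CPM, where the all live libraries had 16.5 and 55.2 and 599 and 2423. With DESeq2, 3 members passed (Mmp3 higher, Adam8 and Ctss lower). Library sums alone do not tell fewer cells of a class from less RNA per cell. Macrophage or monocyte-like cells numbered 461 and 1500 in the all live and 1 and 16 in the sorted CAF libraries, and gave 378 of the 583 Ctss UMIs of the sorted cells.

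Within fibroblast-like cells no member passed between the fractions (0 of 30 tested, against 0.000% of 8876 genes; 2 members and 73 genes had an unadjusted p below 0.05; member median 0.12, all genes -0.00). Within ductal epithelial-like cells none of 25 passed either (0.000% of 11947 genes; 1 member and 77 genes at an unadjusted p below 0.05; member median 0.02, all genes 0.00). With the tumor as a block, which leaves a single residual degree of freedom, 3 members passed in each class, against 1.0% and 1.170% of genes. In fibroblast-like cells, Mmp3 was higher in the sorted fraction, at 255 and 466 CPM against 226 and 177 (log2 fold change 0.76, SE 0.17, adjusted p = 0.00146), while Ctss (0.792 and 2.00 against 15.5 and 59.3 CPM, -4.83) and Mmp9 (-2.56) were lower, both as log2 fold change. The gain of Mmp3 was small in tumor 1 and large in tumor 2. Without sorted CAF 1, and with no block, 2 members passed in fibroblast-like cells (Mmp13 and Ctss), and none in ductal epithelial-like cells. In these fits sorted CAF 2 was the only sorted library and was assumed to vary like the all live ones, and the Mmp13 UMIs of tumor 2 came mostly from 10 cells.

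In ductal epithelial-like cells the block gave Mmp7 (0 and 26.6 CPM in sorted CAF 1 and 2 against 8.80 and 206 in all live 1 and 2, log2 fold change -3.66, SE 0.43, adjusted p = 2.64e-04), Ctss (-5.71) and Mmp9 (1 against 36 UMIs) as lower in the sorted fraction. The Epcam-positive cluster that carried Mmp7 made up 33 of 793 cells of this class in all live 1, 2 of 745 in sorted CAF 1, 151 of 156 in all live 2 and 76 of 87 in sorted CAF 2. Immune RNA moved with Ctss and Mmp9. Macrophage markers summed to 288 and 346 CPM in the all live fibroblast-like sums (11 of 11 counted in each) and to 41.97 and 44.00 in the sorted ones (7 and 10 of 11; Ccr2 at 0 in both, Adgre1, C1qb and Mrc1 also at 0 in sorted CAF 1). The neutrophil markers, 6 and 7 of 7 counted in the all live and 4 and 6 in the sorted libraries, summed to 1796 and 469 against 181 and 145 CPM there. In ductal epithelial-like cells the macrophage markers summed to 135 and 205 against 42.7 and 17.9 CPM (11 and 11 against 8 and 6 counted). Their part in the result was not tested.

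Genes that act with these families were read from 5 related lists. In the subcluster contrast, 1 of 16 tested genes of metalloproteinase activation and clearance was higher in subcluster 5, the proprotein convertase Pcsk6 (mean level 24.5 against 3.33, log2 fold change 3.34, SE 0.63, adjusted p = 0.0157), and 2 were lower, Plaur, the urokinase receptor, and Serpine2, a serpin that inhibits thrombin and plasminogen activators (mean level 26.8 against 349, log2 fold change -4.00, SE 0.50, adjusted p = 0.00381). Of 10 other stromal matrix proteases the serine protease Htra3 was higher and Cpxm2 lower, of 11 other cathepsins and cystatins Ctsc was lower, of 9 other MMP, ADAM, ADAMTS and TIMP genes Adamtsl2 was higher, and of 18 transcription factors known at MMP promoters Etv4 was lower. Over all genes 2.050% were higher and 1.970% lower, so lists of this size with 1 called gene give no result about the list. Between ductal epithelial-like and fibroblast-like cells of the all live libraries, 10 of 11 stromal matrix proteases, 6 of 18 activation and clearance genes and 3 of 17 other cathepsins and cystatins were lower and none of these was higher. Of 6 other MMP, ADAM, ADAMTS and TIMP genes, 1 was higher (Adam28) and 2 were lower (Adamtsl1 and Adamtsl2). The shares over all genes were 8.720% lower and 3.970% higher. Between macrophage or monocyte-like and fibroblast-like cells, 9 of 11 stromal matrix proteases were lower, while 3 of 17 other cathepsins and cystatins were higher: Ctsc (mean level 1119 against 145, log2 fold change 3.13, SE 0.67, adjusted p = 0.0105), Ctsd and legumain (Lgmn). There 6.710% of all genes were higher and 11.600% lower. In neutrophil-like cells, against macrophages, the stefins Stfa1, Stfa2 and Stfa2l1, inhibitors of cysteine cathepsins, were higher and Lgmn was lower among 17 tested, where 0.473% of all genes were higher and 0.618% lower. Of the transcription factors, 1 of 19 was higher and 1 lower in macrophages, 1 of 19 was lower in ductal epithelial-like cells, and none of 19 passed in neutrophil-like cells.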

How the data were processed

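Single-cell UMI counts of 4 libraries were used as deposited: per the submitters' processing notes, the authors made these counts with Cell Ranger 2.0.0 on mm10, and CASAVA 1.4 is also named; the remaining settings are not given in the sources used here. Barcodes needed 500 detected genes or more and no more than 10% of UMIs from mitochondrial genes. Scrublet's automatic threshold marked only 27 cells, so the cells with the highest scores were removed instead, 0.8% per 1000 barcodes (163 cells). Clustering used scanpy 1.11.5 with 2000 variable genes, 30 components, 15 neighbours and Leiden resolution 1. The 36 genes, the related lists, mitochondrial and ribosomal genes were left out of it. A cluster was named from at least 3 markers, each 2-fold higher and in 20% of its cells, and 1398 cells stayed unnamed.

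UMIs were added up over the cells of a class in a library where it had 20 cells or more. For fibroblast and macrophage subclusters, ductal and unnamed clusters and smaller classes, both fractions of a tumor were summed. Sums were compared by edgeR 4.0.16 (quasi-likelihood test, two-sided, TMM scaling, filterByExpr), with Benjamini-Hochberg adjustment over all genes and a threshold of 0.05. Every adjusted p in the text comes from it unless DESeq2 1.42.0 is named. Intervals are 95%, exact Poisson for levels and exact for count ratios. The libraries of a fraction pair come from the same tumor; deviations of same-numbered libraries correlated at 0.6986 (whole libraries), 0.6267 (fibroblast-like) and 0.8196 (ductal epithelial-like). Alternatives were DESeq2, no filter on low counts, the tumor as a block, another resolution, kept doublets, joined unnamed clusters and single sums left out. With doublets kept, cells were clustered and named anew. Genes were named where they passed in a comparison, up to 15 by fold change, or were highest in a class in both tumors, or were 2-fold higher in a subcluster; other levels were picked after their values were seen. The members and lists were chosen with earlier results of these data known. The scripts were tested on simulated data. Design text mentions technical replicates; 4 samples were analysed here.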

Additional observations from a re-analysis of the deposited data

How the results depend on the processing

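No member called in the main comparisons changed direction under an alternative that gave it a value; the fraction comparisons had no called member to follow. Of the counts of members passing, those between fractions were 0 and became 3 (whole libraries), 1 (fibroblast-like) and 1 (ductal epithelial-like) with DESeq2, and 2 in fibroblast-like cells with no filter on low counts. With the tumor as a replicate block they were 3 in fibroblast-like and 3 in ductal epithelial-like cells; leaving out a library gave 0 to 2 and 0 to 1. The subcluster contrast (6) gave 10 with no filter, 13 with the replicate block, 0 with doublet calls kept and 4 to 7 with a sum left out. The neutrophil-like contrast (3) gave 8 with DESeq2, 12 with no filter, 7 with the block and 0 to 0 with a sum left out. The mesothelial-like contrast (1) gave 9 with DESeq2, 11 with no filter, 2 with the block and 0 to 0 with a sum left out. The ductal against fibroblast-like contrast of the all live libraries (19) ranged from 12 to 21 with a sum left out. The pairing by tumor changed no call other than those given beside the results. The other counts stayed within 1.5 times. The cause of these shifts was not tested. With 2 tumors, a count of 0 does not show that levels were equal, and genes with few UMIs had wide intervals.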

Other observations

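The smaller stromal and immune classes also held members, given here as levels with no test. Pericyte-like cells of tumor 2 had Timp3 at 930.2, Adamts2 at 321, Adamts1 at 295, Mmp14 at 273 and Adamts4 at 199 CPM. Blood endothelial-like cells of tumors 1 and 2 had Mmp14 at 477 and 147, Adam15 at 262 and 262, Adamts1 at 256 and 211 and Adamts9 at 69.8 and 319.5 CPM. Adamts9 was read at a higher level there in tumor 2 than in tumor 1.

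An unnamed cluster led by Retnla, Folr2 and Lyve1 had Mmp12 at 496 and 228, Timp2 at 618 and 418 and Ctsb at 2108 and 2083 CPM in tumors 1 and 2. Its Mmp12 was above the level of the named macrophage or monocyte-like sums in each tumor. This cluster carried 10 macrophage or monocyte markers. It stayed unnamed because Lyve1, listed as a lymphatic endothelial marker, was among its 10 leading genes and no macrophage or monocyte marker was.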
